A study of Mus musculus with 2 samples.

Results

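The growth hormone, insulin-like growth factor (IGF) and leptin receptor axis was described here in mouse liver through 10 genes. The genes, chosen by name with earlier results of these data known, were Igf1, Igfals, Ghr, Igfbp1, Igfbp2, Igfbp4, Socs2, Cish, Stat5b and Lepr. They were taken as all probe sets of an Affymetrix expression array whose annotation gives exactly that symbol, which were 29 of 34945 probe sets with 1 symbol and 10 of 18193 genes. A probe set is a group of short probes summarised as 1 value for a transcript. The brightest probe set on average represented the gene, and the others are given for agreement. All 10 genes had a mean log2 value of at least 6, the level at which a gene was called measured, as had 9299 genes in all. The samples were a pool of 5 livers from Yap+/- mice, which carry a single functional copy of Yap1, and a pool of 5 livers from Yap+/+ mice, which carry both copies. Both groups were untreated C57BL/6 animals at postnatal day 30, from a line bred onto that background for at least 6 generations. The labels used here name no Cre driver or targeted cell type, do not describe the disrupted allele, and give neither the sex nor the feeding nor the hour of sacrifice of the mice.

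Growth hormone from the pituitary binds its receptor on hepatocytes, which activates the kinase JAK2 and the transcription factor STAT5B. STAT5B drives Igf1 and Igfals, whose products form the circulating IGF complex, and also Socs2 and Cish, whose products restrain the signal. IGF-binding proteins set how much IGF is free, and the leptin receptor belongs to the same cytokine receptor superfamily as the growth hormone receptor. Liver is the main source of circulating IGF1 after weaning.

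Each genotype was 1 pool on 1 array, so a value has no replicate error, no difference was tested, and the pools of 5 mice count as 1 sample each. The arrays held 45101 probe sets, with Pearson's r = 0.996 between the pools across probe sets, which are not independent replicates. On the log2 scale the difference between pools had a robust SD of 0.15 among measured genes. In 3406 genes with several measured probe sets, the 2 brightest disagreed about it with a robust SD of 0.17. Yap1 itself, the gene whose copy number distinguishes the groups, read 9.24 in Yap+/-, against 9.40 in Yap+/+, where the brighter probe set is taken, a difference of -0.15 that is within that disagreement. The dimmer Yap1 probe set read 5.77 in Yap+/-, against 6.01 in Yap+/+, a difference of -0.24. The hepatocyte marker Alb read 15.09 in both pools, near the highest values of the arrays, 15.13 in Yap+/- and 15.15 in Yap+/+. Array controls had a greater excess of 3-prime over 5-prime signal in Yap+/- than in Yap+/+, with log2 gains of 0.20 (beta-actin), 0.22 (Gapdh) and 0.21 (pyruvate carboxylase). This measure of RNA or labelling quality runs alongside every difference below, and its part in them was not tested.

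The central growth hormone and IGF1 genes read nearly the same in both pools, and the larger differences lay in the leptin receptor Lepr, the feedback inhibitors Socs2 and Cish, and the binding proteins Igfbp1 and Igfbp2. Lepr was the only member past 1.5-fold, at a nominal 1.83-fold higher in Yap+/-. It counted as measured only through its Yap+/- value of 6.72, since its Yap+/+ value of 5.85 was under the minimum and may be background, so nothing about the members is read from its count. By count 1 of 10 members was higher by 1.5-fold or more, where 0.699% of measured genes were. In the other direction 0 of 10 were past 1.5-fold, where 0.645% of measured genes were. At 2-fold 0 members were counted on either side, where 0.0968% of measured genes were higher and 0.226% lower. At a log2 difference of 0.32193 Lepr, Igfbp2 and Socs2 were counted higher and Igfbp1 and Cish lower, 3 and 2 of 10. Of measured genes 3.86% were higher and 3.18% lower by this cut, which Socs2 passed only narrowly, at 0.32269. The same 5 genes differed by over 2 robust SDs of the genes at their own level, a cut added after the data were seen. Among measured genes 4.28% did so on the higher and 3.72% on the lower side. Members were chosen with earlier results of these data known, so their counts beside these shares are not a test. The other 5 members differed by at most 0.12 on the log2 scale. In all 8 members were higher by any amount and 2 lower, where 48.8% of measured genes were higher. The median log2 difference was 0.098 over the 10 members and 0.00 over all measured genes. With a minimum mean of 7, which left Lepr out, the median was 0.085 over 9 members. Lepr is also in the 3, 5 and 8 counted above, so those counts are not read as a result about the members. In bulk liver, fewer cells of a type and less RNA per cell cannot be told apart.

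**Figure D1:**
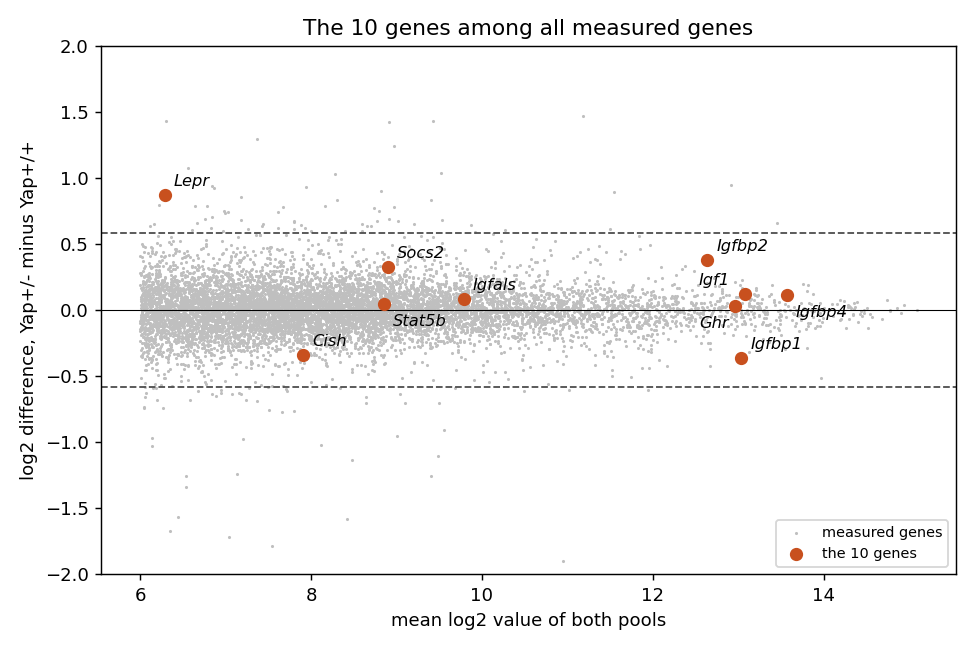
Each point is a measured gene, with the mean log2 value of both pools on the x axis and the log2 difference, Yap+/- minus Yap+/+, on the y axis; dashed lines mark 1.5-fold, and 7 genes lie beyond the drawn range of 2. Lepr, at 0.87, is the only one of the 10 genes outside the dashed lines, while Igf1, Igfals, Ghr, Stat5b and Igfbp4 lie near 0.

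Reference sequence upstream of the genes was searched for letters known to bind the factors of this axis. RefSeq windows of 250 bases before an annotated start, on build GRCm38.p6, were at hand for 9 of the 10 members, 15 windows in all, and Socs2 had none. Of the windows searched, 3 are shown: those of Igfbp1 and Lepr, which share a motif and belong to the members with the larger differences, and the Igfals window whose match to the STAT5 letters is closest to a start. Igfbp1 was lower and Lepr higher in Yap+/-, and a shared regulation was not tested. Capitals mark CAAAACA, the core of the insulin response element of Igfbp1, which FOXO factors bind, in the Igfbp1 and Lepr windows. They mark TTCNNNGAA, the STAT5 recognition sequence, in the Igfals window. All run 5′ to 3′ on the plus strand, at chr11:7197537-7197786 for Igfbp1, chr4:101717656-101717905 for Lepr and chr17:24877981-24878230 for Igfals.
Igfbp1: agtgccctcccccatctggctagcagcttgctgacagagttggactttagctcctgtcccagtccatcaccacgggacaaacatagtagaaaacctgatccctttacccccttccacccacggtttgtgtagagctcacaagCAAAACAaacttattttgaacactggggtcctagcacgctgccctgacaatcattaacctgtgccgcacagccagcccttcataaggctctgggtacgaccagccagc
Lepr: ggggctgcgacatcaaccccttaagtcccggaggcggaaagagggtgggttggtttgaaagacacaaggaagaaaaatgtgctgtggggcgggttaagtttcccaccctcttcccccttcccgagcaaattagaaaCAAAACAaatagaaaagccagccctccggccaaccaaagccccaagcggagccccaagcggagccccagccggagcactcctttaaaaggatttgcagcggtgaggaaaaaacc
Igfals: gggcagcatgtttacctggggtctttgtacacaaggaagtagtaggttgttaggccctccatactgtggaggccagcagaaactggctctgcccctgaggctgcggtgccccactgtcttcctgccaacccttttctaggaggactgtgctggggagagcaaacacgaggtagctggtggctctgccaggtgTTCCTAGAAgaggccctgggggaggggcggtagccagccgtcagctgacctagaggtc

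The insulin response core began 108 bases before the Igfbp1 start and 114 bases before this Lepr start, and both copies read CAAAACA on the strand shown. The other annotated Lepr start had no copy in its window. The Igfals match, TTCCTAGAA, began 58 bases before the start, and a second Igfals window held TTCTCAGAA 236 bases before its own start. Counting both strands, CAAAACA was in 5.56% and TTCNNNGAA in 7.02% of 32851 windows of this length, so either is common, and each was in 2 of the 15 member windows. Of 9 motifs searched, the others were TTCNNNNGAA (STAT with a longer spacer), GTAAACA (forkhead), GGAATG (TEAD), TGACGTCA (cyclic AMP response), CACGTG (E-box), ACANNNTGT (glucocorticoid receptor) and GTTAATNATTAAC (HNF1). GGAATG, the site of the TEAD partners of YAP, was in 12.6% of all windows and in those of Cish and Igfals. GTAAACA was in 3.17% of all windows and in 1 of Igfals, CACGTG in 6.02% and in 1 of Igfbp2, and ACANNNTGT in 5.84% and in 1 of Stat5b. TTCNNNNGAA (5.85%), TGACGTCA (1.55%) and GTTAATNATTAAC (0.00913%) were in 0 member windows. No motif overlapped another in the capitals shown, and a match is only a run of letters, not a measured site.

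Igf1, the growth factor itself, read slightly higher in Yap+/- on every probe set. Its brightest probe set, 1452014_a_at, read 13.14 in Yap+/- and 13.02 in Yap+/+, and 1437401_at read 12.61 in Yap+/- and 12.53 in Yap+/+. Probe set 1434413_at read 12.43 in Yap+/- and 12.20 in Yap+/+, and 1419519_at read 11.50 in Yap+/- and 11.31 in Yap+/+. All 4 thus pointed the same way, by 0.082 to 0.23 on the log2 scale, or 1.06-fold to 1.17-fold higher. The difference of the brightest, 0.12, was 1.40 times the robust SD of 196 genes within 0.5 of its level. These probe sets read transcripts of 1 gene in the same RNA and are not replicates.

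Igfals encodes the acid-labile subunit, which holds IGF1 in a large stable complex in the blood. Its single probe set read 9.83 in Yap+/-, against 9.74 in Yap+/+, 1.06-fold higher, a difference of 0.085 that was 0.63 of the robust SD of genes at its level. On their brightest probe sets the ligand and its carrier thus differed by less than the disagreement of probe sets of a gene.

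Ghr, the growth hormone receptor, gave no common direction. Its brightest probe set, 1417962_s_at, read 12.98 in Yap+/- and 12.95 in Yap+/+. The others were lower in Yap+/-, with 11.79 in Yap+/- and 11.90 in Yap+/+ on 1451501_a_at, and 7.43 in Yap+/- and 7.56 in Yap+/+ on 1451871_a_at. The differences were 0.030, -0.11 and -0.12, all smaller than the disagreement of 0.17. In mice the Ghr gene also makes a shorter transcript for a soluble growth hormone binding protein, and the labels used here do not say which probe set reads which form.

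**Figure D2:**
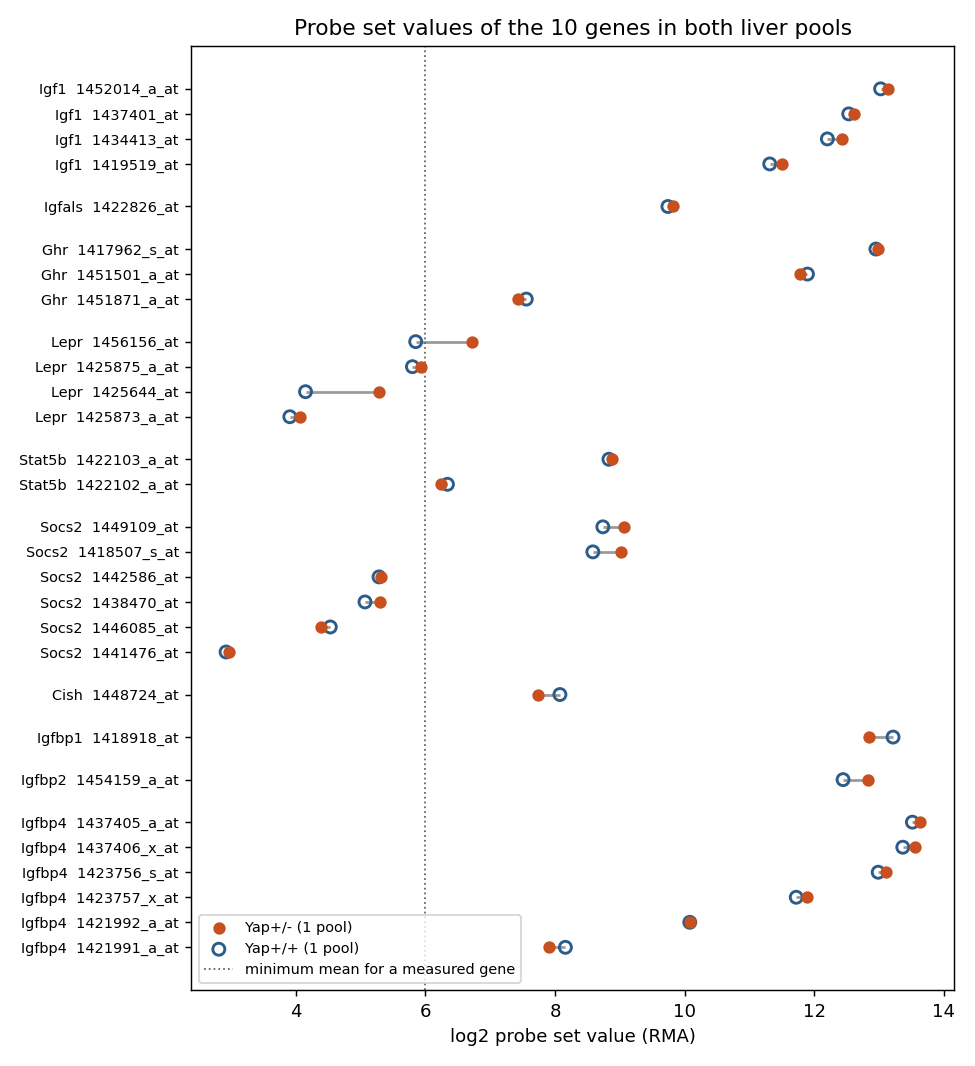
Each row is a probe set, grouped by gene in order of role, with log2 value on the x axis, a filled point for the Yap+/- pool and an open circle for the Yap+/+ pool. The points nearly coincide for Igf1, Igfals, Ghr and Stat5b, and stand apart for Lepr probe sets 1456156_at and 1425644_at; the dotted line marks a mean of 6.

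Lepr, the leptin receptor, showed the largest difference of the 10 genes. In mouse liver it is made in short and soluble forms, the soluble one binding leptin in the blood. Probe set 1456156_at read 6.72 in Yap+/- and 5.85 in Yap+/+, a difference of 0.87. With no detection calls, the Yap+/+ value may be background, and the fold, like the distance of Lepr from other genes, is approximate.

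The other 3 Lepr probe sets had means under the minimum of 6 and fell into separate sizes. Probe set 1425644_at read 5.28 in Yap+/- and 4.15 in Yap+/+, a difference of 1.13, with the Yap+/+ value under the median of all probe sets on that array, 4.93. Probe set 1425875_a_at read 5.93 in Yap+/- and 5.80 in Yap+/+, and 1425873_a_at read 4.07 in Yap+/- and 3.91 in Yap+/+, differences of 0.13 and 0.16. All 4 were higher in Yap+/-, by much on the pair without a suffix and by little on the pair with the suffix _a, which denotes probes shared by transcript variants of a gene. Their mean difference was 0.57, just under the 1.5-fold threshold of 0.58, at a mean level of 5.21. The annotation used here does not say which receptor form each reads, and a difference between forms was not tested.

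Leprot, which in humans shares its promoter and first exons with the leptin receptor gene, did not differ in a common direction. Its 3 probe sets read 8.91, 7.95 and 7.41 in Yap+/-, against 8.75, 7.93 and 7.59 in Yap+/+, differences of 0.16, 0.020 and -0.18. The ligand gene Lep read 3.45 in both pools, near the lowest value of the table, 2.49.

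**Figure D3:**
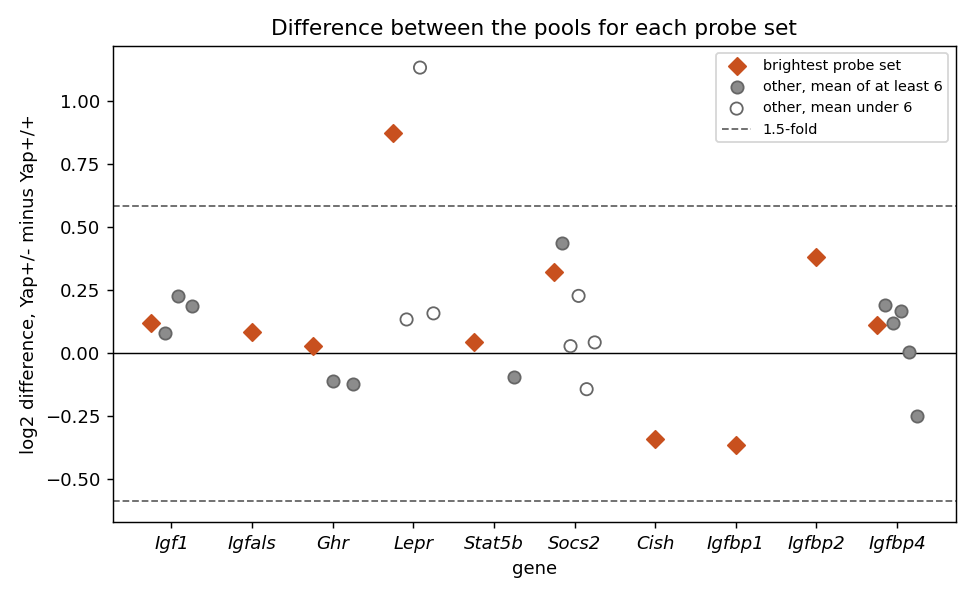
Each point is a probe set, with the gene on the x axis and the log2 difference, Yap+/- minus Yap+/+, on the y axis; diamonds are the brightest probe set of a gene, grey circles others with a mean of at least 6, open circles others under it, and dashed lines mark 1.5-fold. All 4 Igf1 and all 4 Lepr probe sets lie above 0, whereas those of Ghr, Stat5b and Igfbp4 lie on both sides.

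Stat5b, the transcription factor that carries the growth hormone signal, read 8.88 in Yap+/-, against 8.83 in Yap+/+, on its brighter probe set. Its second, 1422102_a_at, read 6.24 in Yap+/- and 6.34 in Yap+/+. The differences, 0.045 and -0.096, had opposite signs and were both under 0.17. Messenger RNA levels do not show whether STAT5B protein was active.

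Socs2 and Cish, both textbook STAT5 targets that encode inhibitors of cytokine receptor signalling, differed in opposite directions. Socs2 read 9.06 in Yap+/- and 8.74 in Yap+/+ on 1449109_at, and 9.02 in Yap+/- and 8.58 in Yap+/+ on 1418507_s_at. Both measured probe sets were thus higher in Yap+/-, by 0.32 and 0.44 on the log2 scale. Its 4 dim probe sets, with means under 6, differed by -0.14 to 0.23, and 3 of the 4 were higher.

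Cish read 7.73 in Yap+/-, against 8.08 in Yap+/+, on its single probe set, 1.27-fold lower. The difference of Socs2, 0.32, was 2.29 times the robust SD of genes near its level, and that of Cish, -0.34, was 2.30 times in the other direction. Among all measured genes Socs2 ranked 358 from the highest and Cish 252 from the lowest.

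The IGF-binding proteins also went both ways. Igfbp1, made by hepatocytes and repressed by insulin, read 12.85 in Yap+/-, against 13.22 in Yap+/+, on its single probe set, 1.29-fold lower. Igfbp2, which is regulated more slowly by nutrition and is abundant in fetal liver, read 12.83 in Yap+/- and 12.44 in Yap+/+, 1.30-fold higher, also on a single probe set. Each difference was over 4 times the robust SD of genes near its level, at 4.15 for Igfbp1 and 4.50 for Igfbp2, where genes near their levels had a robust SD of 0.088 and 0.085. They ranked 219 from the lowest and 243 from the highest. Beside the disagreement of 0.17 between probe sets of a gene, the differences were -0.37 for Igfbp1 and 0.38 for Igfbp2. Neither gene has another probe set for comparison.

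Igfbp4, a binding protein that inhibits IGF action and is made in quantity by liver, was slightly higher on most of its probe sets. The brightest, 1437405_a_at, read 13.63 in Yap+/- and 13.51 in Yap+/+, a difference of 0.11. Of its 6 probe sets 5 were higher, by 0.0032 to 0.19. The dimmest, 1421991_a_at, was the exception, at 7.91 in Yap+/- and 8.16 in Yap+/+, a difference of -0.25. Of the 5 members with more than 1 measured probe set, 2, Igf1 and Socs2, had them all on the same side, and 3, Ghr, Stat5b and Igfbp4, did not.

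Among other genes of the IGF system the insulin receptor substrates Irs2 and Irs1 were lowest, and the other measured genes differed by at most 0.25 on the log2 scale. Of 16 listed genes 9 were measured, with 5 higher and 4 lower, none past 1.5-fold, and a median of 0.022 beside 0.00 over all measured genes. Irs2 read 7.13 in Yap+/- and 7.70 in Yap+/+, 1.48-fold lower, and Irs1 read 9.57 in Yap+/- and 9.92 in Yap+/+, 1.28-fold lower. Both pass signals from the insulin and IGF1 receptors. The adaptor Grb10, which inhibits those receptors, was 1.19-fold higher and the insulin receptor Insr 1.16-fold higher. Igfbp3, the main carrier of IGF1 in blood, made in liver by non-parenchymal cells, read 9.07 in Yap+/- and 9.09 in Yap+/+. Igf1r was under the minimum at 5.00 in Yap+/- and 5.28 in Yap+/+.

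Genes of growth hormone and cytokine receptor signalling had 11 of 16 measured members higher and 4 lower, with a median of 0.11. Of the 16, 1 was higher by 1.5-fold or more, where 0.699% of all measured genes were. Socs3, the inhibitor induced by interleukin-6 and leptin signalling, read 8.10 in Yap+/- and 7.49 in Yap+/+, 1.53-fold higher, and its other 2 measured probe sets were also higher. Ptpn1, the phosphatase that removes phosphate from JAK2 and the insulin receptor, was higher by 0.32 on the log2 scale, and Ptpn2, a related phosphatase, also by 0.32. The lowest were Stat3, at -0.13 with its other 2 measured probe sets higher, and Socs6, at -0.031. Jak2, the kinase of the growth hormone receptor, was 1.13-fold higher, and Stat5a, the close relative of Stat5b, read 7.17 in Yap+/- and 7.19 in Yap+/+.

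Receptors related to Lepr, together with Leprot and adiponectin receptors, had 7 of 9 measured members higher, none past 1.5-fold, and a median of 0.13. Lifr, the receptor of leukaemia inhibitory factor, read 11.26 in Yap+/- and 10.86 in Yap+/+, 1.31-fold higher, and Il6ra was 1.17-fold higher, although its other measured probe set differed by -0.26. On the lower side, Adipor2 differed by -0.15 and Csf3r by -0.035. Osmr, the oncostatin M receptor and named here after its value was seen, was under the minimum, at 6.17 in Yap+/- and 5.54 in Yap+/+.

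**Figure D4:**
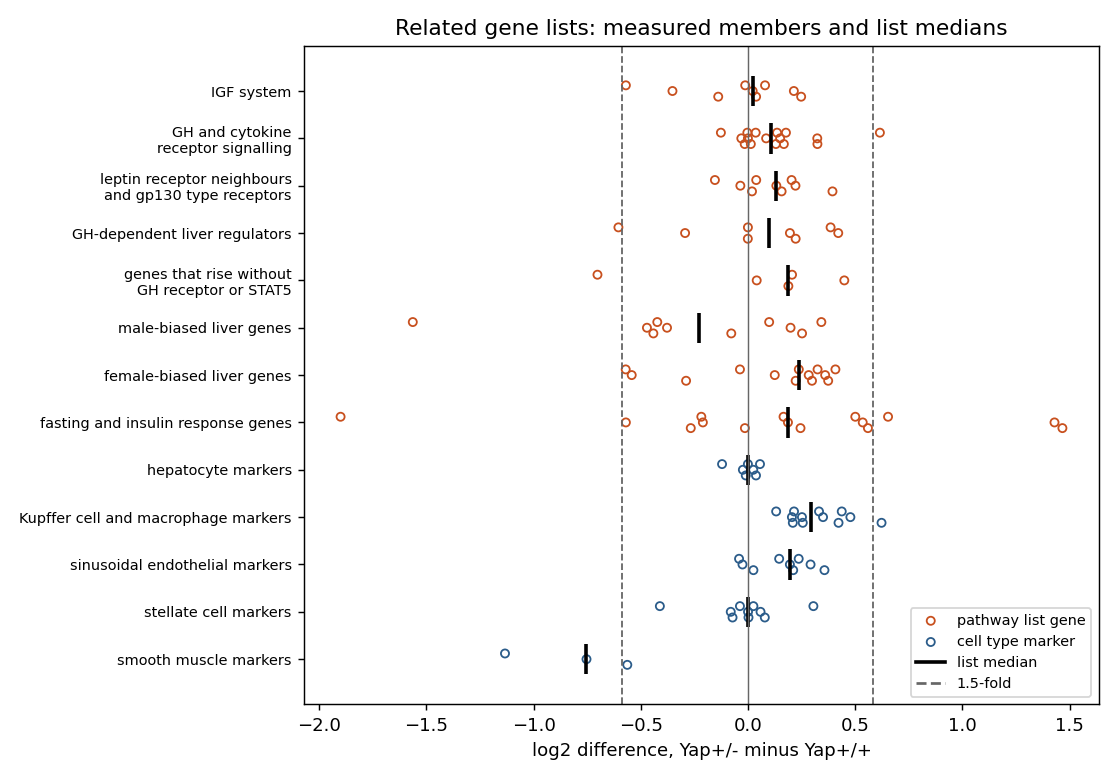
Each row is a gene list with at least 3 measured members, each circle a measured gene at its log2 difference, Yap+/- minus Yap+/+, with black bars for list medians and dashed lines for 1.5-fold. Kupffer cell markers all lie above 0, with a median of 0.29, and the fasting and insulin list is the most spread, with G6pc at -1.90 and Lpin1 at 1.47. Lists were chosen with earlier results of these data known, so their spread is not a test.

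Hepatic regulators linked to growth hormone, and sex-biased genes, were also set beside the members. The list of regulators had 8 measured genes, 4 higher and 3 lower, with a median of 0.098. It also holds general liver factors such as Hnf4a and Cebpa. Egfr, a growth hormone-dependent gene of hepatocytes, read 11.89 in Yap+/- and 11.47 in Yap+/+, 1.34-fold higher, and all 3 of its other measured probe sets were higher. Cebpb was 1.31-fold higher. Onecut1, the factor HNF6, read 6.64 in Yap+/- and 7.25 in Yap+/+, 1.52-fold lower, and the STAT5-responsive repressor Bcl6 was 1.23-fold lower. Cux2, a factor of female liver, was 1.17-fold higher, but its other 2 measured probe sets split.

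Sex-biased genes, which follow the pattern of growth hormone release, had a median of -0.23 over 10 measured male-biased genes. Of these 6 were lower and 1, Cyp4a12a, was lower by 1.5-fold or more, where 0.645% of all measured genes were. The median was 0.24 over 13 measured female-biased genes, of which 9 were higher and none was past 1.5-fold. The most different of the male-biased genes were Cyp4a12a at 2.95-fold and Slco1a1 at 1.39-fold lower, and C6 at 1.27-fold and Serpina12 at 1.19-fold higher. Among female-biased genes they were Cyp2b13 at 1.33-fold and Slc22a26 at 1.30-fold higher, and Sult3a1 at 1.48-fold and Atp6v0d2 at 1.46-fold lower. A further measured probe set of Slc22a26 differed by 0.04. The Cyp4a12a value in Yap+/-, 5.66, may be background, and its fold is approximate. Sex is not given in the labels for either pool. Neither the part of sex nor that of growth hormone release in these values was tested.

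Genes of fasting and insulin response, among which Igfbp1 is usually counted, went both ways by larger amounts. Their list was chosen with earlier results of these data known, so its spread and counts are not a test of that response. Of 15 measured genes 9 were higher and 6 lower, of which 3 and 1 were past 1.5-fold, and the median was 0.19. Lpin1 was 2.76-fold and Angptl8, which insulin induces, 2.69-fold higher. G6pc, the last enzyme of glucose release, was 3.73-fold lower, in the same direction as Igfbp1. Pck1, which like Igfbp1 and G6pc is repressed by insulin, read 13.12 in Yap+/- and 12.96 in Yap+/+, while its other measured probe set differed by -0.34. Foxo1, which acts on the insulin response element of Igfbp1, read 9.53 in Yap+/- and 8.88 in Yap+/+, 1.57-fold higher, with both other measured probe sets higher. Irs2 was the second lowest of the list. Other measured genes of the list included Srebf1 at -0.21, Pdk4 at 0.25, Ppargc1a at 0.50 and Angptl4 at 0.54. Feeding and the hour of sacrifice are not given in the labels, and their part in these values was not tested.

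Markers of some other liver cell types differed between the pools as well, while those of stellate cells read nearly the same on average. All 12 Kupffer cell and macrophage markers were higher in Yap+/-, with a mean log2 value of 9.25 in Yap+/- and 8.93 in Yap+/+, a median difference of 0.29, and Marco 1.54-fold higher. Of 9 measured sinusoidal endothelial markers 7 were higher, with a mean of 9.04 in Yap+/- and 8.89 in Yap+/+. At the ends of the list were Fcgr2b, 1.28-fold higher, and Oit3 at -0.041. However, the other 3 measured probe sets of Fcgr2b differed by 0.08, -0.14 and 0.05. Stellate cell markers averaged 9.11 in Yap+/- and 9.12 in Yap+/+ over 10 measured genes, with Pdgfrb 1.24-fold higher and Des 1.33-fold lower. A further measured probe set of Pdgfrb differed by 0.00. Hepatocyte markers averaged 14.62 in both pools over 7 genes, from Hp at -0.12 to Fgb at 0.056. Such levels are near the highest values of the arrays, where a difference may be compressed. The 3 measured smooth muscle markers were lower, with a mean of 6.98 in Yap+/- and 7.80 in Yap+/+ and Acta2 2.19-fold lower. Of the neutrophil list 1 of 5 genes was measured, S100a9, at 7.02 in Yap+/- and 5.58 in Yap+/+. That Yap+/+ value was under the minimum and may be background. With means under 6, S100a8 differed by 1.59, Elane by 0.26 and Mpo by -0.10. Bile duct, lymphocyte and adipose lists had 0 measured members. The duct keratin Krt19, named after its value was seen, had a mean under 6 and read 4.83 in Yap+/-, against 6.73 in Yap+/+, and the other 4 bile duct genes with a probe set differed by -0.15 to 0.26. The adipose genes Adipoq and Lep read at most 3.45 in either pool. The part of these cell types in the values of Lepr, Socs2, Cish, Igfbp1 and Igfbp2 was not tested.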

How the data were processed

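Liver RNA pools, 1 of Yap+/- and 1 of Yap+/+ mice, were each labelled with a 3-prime in vitro transcription kit and hybridised to 1 array, per the labels' protocols. The authors deposited log2 values per probe set, made with RMA and Partek 6.5 per the submitters' processing notes, with settings unstated in the labels. The sorted columns lay within 0.047 of each other, as quantile normalisation leaves them, which removes an overall difference in RNA amount. Detection calls were not used here, and the number of arrays limits the precision. Probe sets were named from the supplied platform annotation. Of the 45101, 34945 had 1 symbol, 932 several and 9160 none, and 64 were array controls. All 10 members matched the RefSeq gene table by symbol and gene identifier, and 0 probe sets with several symbols held a member.

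Differences are Yap+/- minus Yap+/+ on the log2 scale, with no test. Genes with a mean of at least 6 were counted at 1.5-fold. The local robust SD covered measured genes within 0.5 of a gene's mean. Members and lists were chosen with earlier results of these data known. The text names all members with their probe sets, up to 2 measured genes of each pathway list with the largest positive and up to 2 with the largest negative difference, up to 1 each for marker lists, and some listed genes for their roles, chosen after their values were seen. Counting was tested on simulated data with independent noise of the same size at every level. That simulation modelled neither background nor disagreement of probe sets, so it does not bear on Lepr. Alternatives were other filters, probe set choices, normalisations and thresholds. Tools were pandas 2.3.3 and numpy 2.4.6 under Python 3.11.15, statsmodels 0.14.6 (lowess) and matplotlib 3.10.9 (figures).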

Additional observations from a re-analysis of the deposited data

How the results depend on the processing

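With 1 pool per genotype, no leave-one-out value exists, and no paired analysis was possible because each group has a single sample. The count of members at least 1.5-fold higher, 1 (Lepr), became 0 with a minimum mean of 7, with probe sets of a gene averaged and with 64 added on the linear scale, where Lepr differed by 0.48. With the minimum of 7 Lepr was no longer a measured gene, and with averaging neither Lepr nor Socs2 was. A threshold of 2-fold gave 0 higher, and a log2 difference of 0.32193 gave 3 higher and 2 lower in place of 0. Socs2 passed that cut narrowly, at 0.32269. It fell short with the lowess trend removed (0.31678) and with 64 added on the linear scale (0.28449), where Cish did too (-0.26943). A threshold of 2 local robust SDs, added after the data were seen, also gave 3 higher and 2 lower. Among measured genes 4.28% passed it higher and 3.72% lower. The median of the members ranged from 0.016, with probe sets averaged, to 0.10. Of 73 single-member values under alternatives 71 kept their sign, and the exceptions were Ghr at -0.068 and Stat5b at -0.025 with probe sets averaged. Without probe sets that carry a suffix, Ghr, Stat5b, Igfbp2 and Igfbp4 had no value. Signals near background limit Lepr most.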

Other observations

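Genes known to be higher in mouse liver that lacks the growth hormone receptor or STAT5 did not share a direction. Of 5 measured genes 4 were higher in Yap+/-, with a median of 0.19. Lpl, lipoprotein lipase, read 11.85 in Yap+/- and 11.40 in Yap+/+, 1.37-fold higher on a probe set whose partner was higher too, and Fabp4, a fatty acid carrier, was 1.15-fold higher. The fatty acid transporter Cd36 was the exception, at 8.75 in Yap+/- and 9.45 in Yap+/+, 1.63-fold lower, with both other measured probe sets lower. Pparg read 6.74 in Yap+/- and 6.70 in Yap+/+, a difference of 0.041. Vldlr was 1.14-fold higher, but its other 2 measured probe sets differed by -0.09 and -0.02.

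Most fetal growth genes were under the minimum of 6 in both pools. Igf2, the fetal growth factor of this family, read 5.42 in Yap+/- and 5.54 in Yap+/+, Dlk1 read 4.91 in Yap+/- and 5.09 in Yap+/+, and Afp read 5.66 in Yap+/- and 5.75 in Yap+/+. Of the 6 genes of that list with a probe set, 1 was measured, Igf2bp3, at 8.13 in Yap+/- and 8.03 in Yap+/+.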
